A study of Mus musculus with 24 samples.

Results

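The 10 genes described here make, break down or sense prostaglandins and related lipids: Pla2g4a, Ptgs2, Ptges, Ptges2, Ptges3, Ptgds, Ptgis, Hpgd, Tbxa2r and Ptger3. They were chosen by name, and the array platform holds 14 probes for these 10 genes among the 21946 named genes of its 45281 probes. Of the 10 genes, 6 had a probe with detection p under 0.05 on the 3 arrays of at least 1 group (Ptges, Ptges2, Ptges3, Ptgis, Hpgd and Tbxa2r), as had 12226 genes in all. The cells came from the aorta-gonad-mesonephros (AGM) region of C57BL/6J embryos at E10.5, the region where the first blood stem cells arise, and were held in microfluidic channel slides. The 24 samples formed 8 groups of 3, each sample pooling 6 channels of 1 treatment. At 36 h, the groups were wall shear stress (WSS, 5 dyne/cm2) with 10 µM indomethacin, WSS with vehicle, static culture (0.0001 dyne/cm2) with 10 µM indomethacin, and static culture with vehicle, and the same 4 groups were made at 6 h. In all groups tissue was dissociated with Accutase, cultured in M5300 Myelocult medium without hydrocortisone, and freed of non-adherent cells before flow began, so that only cells that had attached were measured. Whether a group's 3 samples came from separate cultures or litters is not given in the labels, and the p-values therefore rest on a spread that may be technical.

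Prostaglandins are made from arachidonic acid, which phospholipase A2 enzymes release from membranes. Cyclooxygenases convert it to the common precursor prostaglandin H, and terminal synthases then make prostaglandin E, prostaglandin D, prostacyclin or thromboxane, which act on their own G-protein-coupled receptors. Indomethacin blocks the cyclooxygenase step. Prostaglandin E is known to raise blood stem cell numbers in vertebrate embryos, and endothelial prostacyclin synthesis is a classical response to flow.

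The levels of 3 members differed between WSS and static culture in vehicle at 1 of the times, namely Ptges2, Ptges3 and Tbxa2r, and the windows around their annotated starts are shown for that reason. They come from the RefSeq promoter table of build GRCm38.p6, and each runs from 250 bases before to 50 bases after a transcription start. Capitals mark every match, on either strand, to GAGACC (a shear stress response element first described in human PDGFB), CACGTG (an E-box), CCAAT (the CCAAT box) or TGACGTCA (the cAMP response element). All 4 windows lie on the plus strand, at chr2:32395640-32395939 for Ptges2, at chr10:128058732-128059031 for Ptges3, and at chr10:81328018-81328317 and chr10:81328453-81328752 for the first and second starts of Tbxa2r.
Ptges2: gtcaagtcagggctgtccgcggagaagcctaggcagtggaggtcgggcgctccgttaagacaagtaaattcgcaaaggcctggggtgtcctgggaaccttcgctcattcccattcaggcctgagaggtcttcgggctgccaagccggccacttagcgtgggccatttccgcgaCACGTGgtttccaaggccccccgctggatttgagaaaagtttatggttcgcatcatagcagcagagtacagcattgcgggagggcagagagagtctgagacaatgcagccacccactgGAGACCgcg
Ptges3: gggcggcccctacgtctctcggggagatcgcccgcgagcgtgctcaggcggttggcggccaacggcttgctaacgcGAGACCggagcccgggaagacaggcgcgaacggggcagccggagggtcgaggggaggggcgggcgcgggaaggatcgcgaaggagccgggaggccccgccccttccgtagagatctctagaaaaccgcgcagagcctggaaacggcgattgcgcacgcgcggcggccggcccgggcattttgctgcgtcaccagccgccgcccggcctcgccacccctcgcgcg
Tbxa2r, start 1: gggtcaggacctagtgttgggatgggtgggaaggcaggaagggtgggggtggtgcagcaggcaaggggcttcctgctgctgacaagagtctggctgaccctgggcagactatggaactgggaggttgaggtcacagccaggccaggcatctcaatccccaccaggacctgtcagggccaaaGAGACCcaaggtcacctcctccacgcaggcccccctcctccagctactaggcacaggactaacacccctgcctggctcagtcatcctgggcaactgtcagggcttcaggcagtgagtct
Tbxa2r, start 2: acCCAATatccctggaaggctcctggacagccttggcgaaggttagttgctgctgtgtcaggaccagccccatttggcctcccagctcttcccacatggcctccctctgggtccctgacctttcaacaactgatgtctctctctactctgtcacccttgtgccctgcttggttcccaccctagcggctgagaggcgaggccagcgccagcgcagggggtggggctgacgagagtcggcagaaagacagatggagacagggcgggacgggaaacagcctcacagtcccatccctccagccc
The table held 11 windows for 9 of the 10 members, Ptgis being named only. GAGACC stood in the windows of Ptges2 (first base at position 42, counted from 1 at the start), Ptges3 (position -174) and the first start of Tbxa2r (position -69). It also stood in windows of Ptges, which did not pass in any flow comparison, and of Pla2g4a, Ptgs2 and Ptgds, which were not detected. That was 7 of 11 member windows, and 16.4% of the 32851 windows in the table held it. CACGTG was in 2 of the 11 member windows (Ptges2 and Ptgs2; 7.15% of all), CCAAT in 2 (Pla2g4a and Tbxa2r; 37.4% of all) and TGACGTCA in 0 (1.79% of all). A match says only that these letters are present, and nothing was tested on it.

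Mean signal per array lay between 370 and 610.4 and 18681 to 22156 probes per array were detected. Arrays of 1 group correlated at 0.98 to 0.993 and arrays of different groups at 0.928 to 0.992. Markers of the labelled tissue were present, with 10 of 12 endothelial genes detected (not Tie1 and Erg), 10 of 11 mesenchymal genes (not Postn), 7 of 8 smooth muscle genes (not Cnn1) and 8 of 12 blood stem and progenitor genes (not Gfi1, Myb, Spi1 and Cd48). The cells were therefore a mixture, and in such bulk samples fewer cells of a type and less RNA per cell cannot be told apart.

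Pla2g4a and Ptgs2, the members that act at the first steps of the pathway, were dim. Pla2g4a, the cytosolic phospholipase A2 that frees arachidonic acid, was detected on 0 of 24 arrays, with deposited signals of 54 to 82.6 and a lowest detection p of 0.12393. Ptgs2, the inducible cyclooxygenase that indomethacin inhibits, has 2 probes. The first was detected on 1 of 24 arrays, a WSS vehicle array at 36 h with a signal of 100.2 and a detection p of 0.04701, and the second on 0 of 24, with signals of 53.5 to 85.2. Ptgds, the synthase of prostaglandin D, was detected on 1 array, WSS vehicle at 6 h, at a signal of 107.4. Ptger3, the EP3 receptor for prostaglandin E, was seen on 7 of 24 arrays with its first probe and on 0 with its second, and the highest of the 7 was static indomethacin array 1 at 36 h with 152.1, against 75.8 and 86.8 on arrays 2 and 3 of that group. None of these 4 genes reached detection on 3 arrays of 1 group, and they entered no test, which says that their signal was not well above background and not that the transcripts were absent. Fitted without the detection filter over 21946 genes, Pla2g4a, Ptgs2 and Ptgds passed in 0 of 17 comparisons, with lowest adjusted p-values of 0.23, 0.25 and 0.14. Ptger3 passed in 1 of 17, 36 h against 6 h in static indomethacin culture, with a difference of 0.98 on the log2 scale and an adjusted p of 0.013, in the group that holds the array at 152.1.

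**Figure D1:**
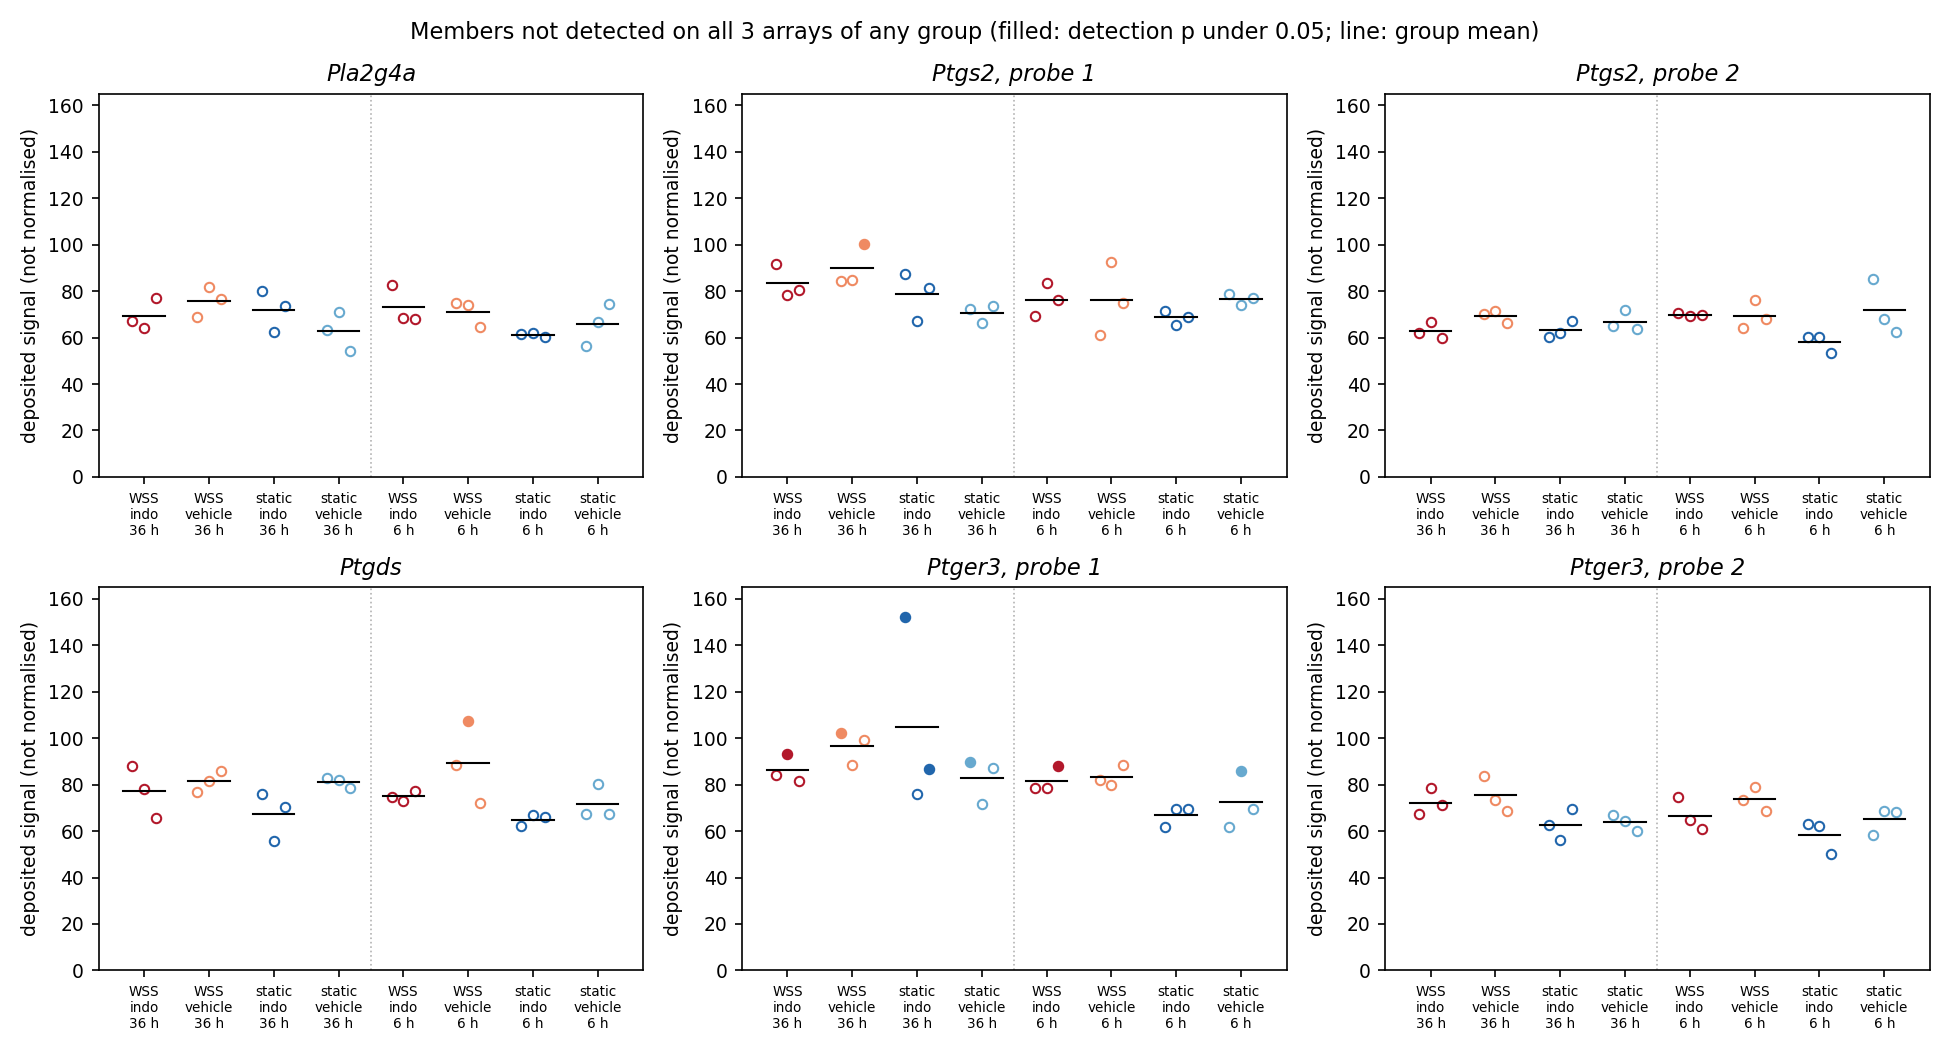
Deposited, non-normalised signal (vertical axis) of the 6 probes of Pla2g4a, Ptgs2, Ptgds and Ptger3 in each of the 24 arrays, by group, with the group mean as a line and filled points where detection p was under 0.05. Few points are filled, and the one at 152.1 for Ptger3 is the highest.

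Ptges encodes the microsomal prostaglandin E synthase, the inducible enzyme that works with Ptgs2. Its brighter probe was detected on 24 of 24 arrays, at normalised log2 signals of 5.15 to 6.48. The 8 group means ran from 5.54 ± 0.40 in static vehicle culture at 6 h to 6.15 ± 0.09 in static indomethacin culture at 36 h (SD, n = 3 each), and each group's arrays overlapped those of the next group in that order. Ptges passed in 0 of 17 comparisons. Its largest simple difference was between 36 h and 6 h in static indomethacin culture, where arrays read 6.2, 6.04 and 6.2 at 36 h, against 5.4, 5.63 and 5.81 at 6 h (0.53 ± 0.26 SE, adjusted p = 0.095). The 36 h arrays were all above the 6 h arrays, but the difference did not pass. A dimmer Ptges probe, detected on 16 of 24 arrays, also passed in no comparison, and its lowest adjusted p among the time comparisons was 0.052 (static vehicle, 0.57).

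Ptges2, a membrane-associated prostaglandin E synthase, was higher under WSS at 6 h. In vehicle its arrays read 7.55, 7.67 and 7.67 under WSS at 6 h, against 7.06, 6.69 and 6.47 in static culture. With indomethacin they read 7.45, 7.68 and 7.74 under WSS, against 6.72, 7.22 and 6.73 in static culture. No WSS array overlapped a static array at 6 h in either drug state. The difference was 0.89 ± 0.19 SE on the log2 scale in vehicle (1.86-fold, adjusted p = 0.0017) and 0.73 ± 0.19 with indomethacin (1.66-fold, adjusted p = 0.012). The indomethacin call was lost without static array 1 or without WSS array 3 (adjusted p up to 0.064).
At 36 h the arrays of Ptges2 overlapped between flow states. They read 8.37, 7.85 and 8.13 under WSS in vehicle, against 7.75, 8.02 and 7.58 in static culture (0.33 ± 0.19 SE, adjusted p = 0.31). That vehicle difference passed with median scaling and without normalisation (up to 0.6, adjusted p down to 0.01). With indomethacin the arrays read 7.62, 8.28 and 8.08 under WSS, against 7.43, 7.95 and 7.66 in static culture (0.31 ± 0.19, adjusted p = 0.32). The flow effect at 36 h minus that at 6 h was -0.56 ± 0.27 in vehicle (adjusted p = 0.19) and -0.42 ± 0.27 with indomethacin (adjusted p = 0.4), so a difference between the times was not shown for this gene.

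Ptges3 is known both as the cytosolic prostaglandin E synthase and as the p23 co-chaperone of heat shock protein 90. It was detected on 24 of 24 arrays and at 6 h followed the same direction as Ptges2. In vehicle it read 10.76, 10.32 and 10.57 under WSS at 6 h, against 9.81, 9.97 and 9.69 in static culture, and every WSS array was above every static array. The difference was 0.73 ± 0.13 SE (1.66-fold, adjusted p = 0.00024). With indomethacin it read 10.36, 10.56 and 10.37 under WSS, against 9.89, 10.11 and 10.18 in static culture, again without overlap (0.37 ± 0.13, 1.29-fold, adjusted p = 0.045). That second call was lost in 13 of the 24 fits that left out 1 array (adjusted p up to 0.2). It was kept in 10 of 13 alternatives (adjusted p up to 0.069). Those that lost it were no filter on dim probes, only the arrays compared, and the replicate number as a block (0.056).
At 36 h Ptges3 was 10.53, 10.55 and 10.57 under WSS in vehicle, against 10.3, 10.43 and 10.25 in static culture, a difference of 0.22 ± 0.13 SE that did not pass (adjusted p = 0.29) although the arrays did not overlap. With indomethacin it was 10.42, 10.59 and 10.55 under WSS, against 10.65, 10.32 and 10.47 in static culture (0.04, adjusted p = 0.86). The difference between the 2 flow effects in vehicle was -0.51 ± 0.18 (adjusted p = 0.067).

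Ptges2 and Ptges3 were the 2 of 6 detected members that passed under WSS at 6 h, in vehicle and with indomethacin alike. In vehicle 29.4% of all tested genes passed, 15.1% upward and 14.3% downward, and with indomethacin 17.8% passed, 9.45% upward and 8.34% downward. The member count of 2 of 6 in vehicle was thus close to the share among all genes. Arrays did not overlap for 2 of 6 members in vehicle (45.9% of all genes) and for 3 of 6 with indomethacin (40.2%). The median difference of the 6 detected members was 0.37 in vehicle and 0.22 with indomethacin, beside 0.01 and 0.04 over all tested genes. Over the 8 group means, Ptges2 and Ptges3 correlated at 0.92 (n = 8 groups, which share arrays and culture). Mean array signal was also higher under WSS at 6 h (566.5 in vehicle and 519.4 with indomethacin) than in static culture (424.4 in vehicle and 395.1 with indomethacin) before normalisation. Blood stem and progenitor markers summed to 596 to 649 under WSS in vehicle at 6 h, against 413 to 478 in static culture, with 3 of 8 higher, and to 574 to 644 under WSS with indomethacin, against 398 to 445 in static culture, with 1 of 8 higher. Of 11 macrophage markers, 3 were higher under WSS at 6 h in each drug state, at 640 to 1279 under WSS in vehicle, against 519 to 692 in static culture. Mesenchymal markers summed to 3356 to 3658 under WSS in vehicle, against 4024 to 4420 in static culture, with 3 of 10 lower. The median difference of the 10 was 0.03. With indomethacin mesenchymal markers summed to 3332 to 3607 under WSS, against 2984 to 4077 in static culture, with 0 of 10 passing. Melanoblast markers summed to 1377 to 1757 under WSS in vehicle, against 2047 to 2314 in static culture, with 1 of 4 lower. Epithelial markers summed to 1652 to 1941 under WSS in vehicle, against 2023 to 3228 in static culture, with 1 of 6 lower. The part of array signal and of these markers in the Ptges2 and Ptges3 results was not tested. One WSS indomethacin sample at 6 h had a summed erythroid level of 9869, the highest of its group being 118463.

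**Figure D2:**
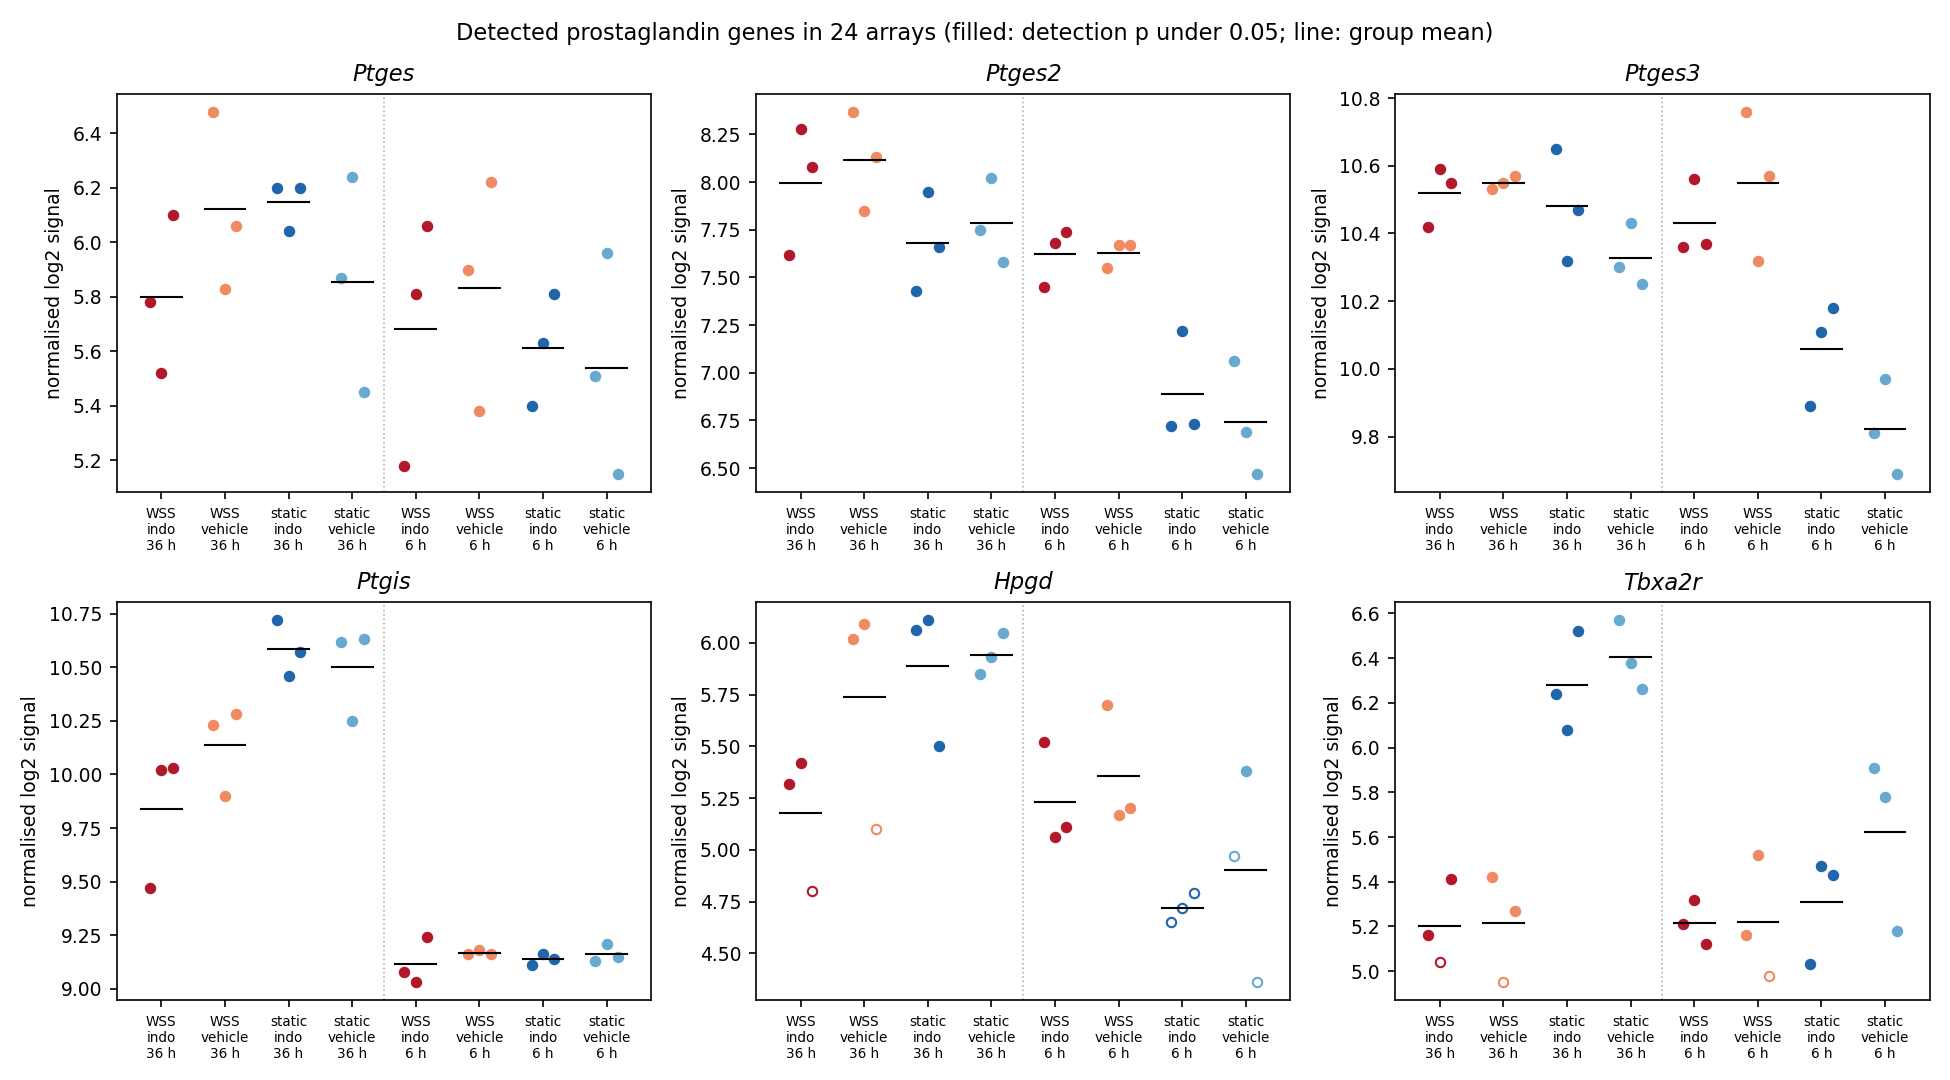
Normalised log2 signal (vertical axis) of the 6 detected members in each array, by group, with the group mean as a line, filled points where detection p was under 0.05. Ptges2 and Ptges3 are lowest in both static groups at 6 h, Ptgis is higher in every 36 h group, and Tbxa2r is highest in both static groups at 36 h.

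Ptgis, prostacyclin synthase, makes the vessel-relaxing and platelet-inhibiting prostanoid of the vessel wall. At 6 h it was flat across all 4 groups, and its 12 arrays lay between 9.03 and 9.24. In vehicle the flow difference at 6 h was 0.00 with a 95% confidence interval of -0.3 to 0.3, and with indomethacin -0.02 (-0.32 to 0.28). At 36 h with indomethacin it read 9.47, 10.02 and 10.03 under WSS, against 10.72, 10.46 and 10.57 in static culture. All WSS arrays were below all static arrays, and the difference was -0.74 ± 0.14 SE (adjusted p = 0.002). At 36 h in vehicle it read 10.23, 9.9 and 10.28 under WSS, against 10.62, 10.25 and 10.63 in static culture. There the ranges overlapped and the difference of -0.36 ± 0.14 did not pass (adjusted p = 0.12). Whether indomethacin altered the flow effect at 36 h was tested directly, with a difference of -0.38 ± 0.20 and an adjusted p of 1.
In the deposited signals of Ptgis before normalisation the flow difference at 6 h was 0.44 in vehicle (adjusted p = 0.035) and 0.42 with indomethacin (adjusted p = 0.046), which is another direction with indomethacin.

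Hpgd, the 15-hydroxyprostaglandin dehydrogenase that starts prostaglandin breakdown, was dim and was detected on all 3 arrays in 4 of 8 groups, namely both WSS groups at 6 h and both static groups at 36 h. With indomethacin at 6 h it read 5.52, 5.06 and 5.11 under WSS, against 4.65, 4.72 and 4.79 in static culture, where it was not well above background on any array. The difference was 0.51 ± 0.26 SE and did not pass (adjusted p = 0.19). At 36 h with indomethacin it read 5.32, 5.42 and 4.8 under WSS, against 6.06, 6.11 and 5.5 in static culture (-0.71 ± 0.26, adjusted p = 0.083). Arrays did not overlap at either time, WSS being above static at 6 h and below it at 36 h. The change of the flow effect between times was -1.21 ± 0.37 and did not pass (adjusted p = 0.069). In vehicle the flow differences were 0.45 at 6 h (adjusted p = 0.2) and -0.21 at 36 h (adjusted p = 0.67), with overlapping arrays.

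Tbxa2r encodes the thromboxane receptor, which constricts vascular smooth muscle and activates platelets. At 36 h it was lower under WSS in both drug states. In vehicle its arrays read 5.42, 4.95 and 5.27 under WSS, against 6.57, 6.38 and 6.26 in static culture (-1.19 ± 0.19 SE, adjusted p = 0.00032). With indomethacin they read 5.16, 5.04 and 5.41 under WSS, against 6.24, 6.08 and 6.52 in static culture (-1.08 ± 0.19, adjusted p = 0.00074). No array overlapped in either comparison. Under WSS at 36 h the probe was detected on 2 of 3 arrays in each drug state, so the WSS level lay near background. Without normalisation the differences were -0.35 (adjusted p = 0.057) and -0.41 (adjusted p = 0.071).
At 6 h Tbxa2r read 5.16, 5.52 and 4.98 under WSS in vehicle, against 5.91, 5.78 and 5.18 in static culture, and the groups overlapped (-0.40 ± 0.19 SE, adjusted p = 0.11). Without static vehicle array 3 that difference was -0.63 and passed (adjusted p = 0.021), and with median scaling over detected probes it was -0.74 (adjusted p = 0.0029). With indomethacin at 6 h it read 5.21, 5.32 and 5.12 under WSS, against 5.03, 5.47 and 5.43 in static culture (-0.09, adjusted p = 0.78). The flow effect at 36 h minus that at 6 h was -0.98 ± 0.27 with indomethacin (adjusted p = 0.047) and -0.79 ± 0.27 in vehicle (adjusted p = 0.056). The first was the only member call among the interactions, in a comparison where 2.91% of all genes passed, 1.41% upward and 1.5% downward (in vehicle 11.8%, 6.33% upward and 5.42% downward, with 0 members), and it held in 7 of the 24 fits without 1 array (adjusted p up to 0.12) and in 5 of 13 alternatives (adjusted p up to 0.16). It was lost with the replicate number as a block (adjusted p = 0.053). At an unadjusted p under 0.05 the members were Tbxa2r and Ptges3 in vehicle (28.2% of all genes), and Tbxa2r, Ptgis and Hpgd with indomethacin (20.2%).
A dimmer Tbxa2r probe was detected on 8 of 24 arrays, and it entered the fit only through static indomethacin culture at 36 h, so its values are given as a description and support nothing. Its mean was 4.77 ± 0.39 under WSS in vehicle at 36 h, against 5.55 ± 0.38 in static culture, and 4.87 ± 0.18 under WSS with indomethacin, against 5.82 ± 0.37 in static culture (SD, n = 3 each). Of the 6 WSS arrays at 36 h 1 was detected, and the WSS levels are therefore near background. At 6 h the means were 4.83 under WSS in vehicle, against 4.79 in static culture, and 4.96 under WSS with indomethacin, against 4.97 in static culture.

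**Figure D3:**
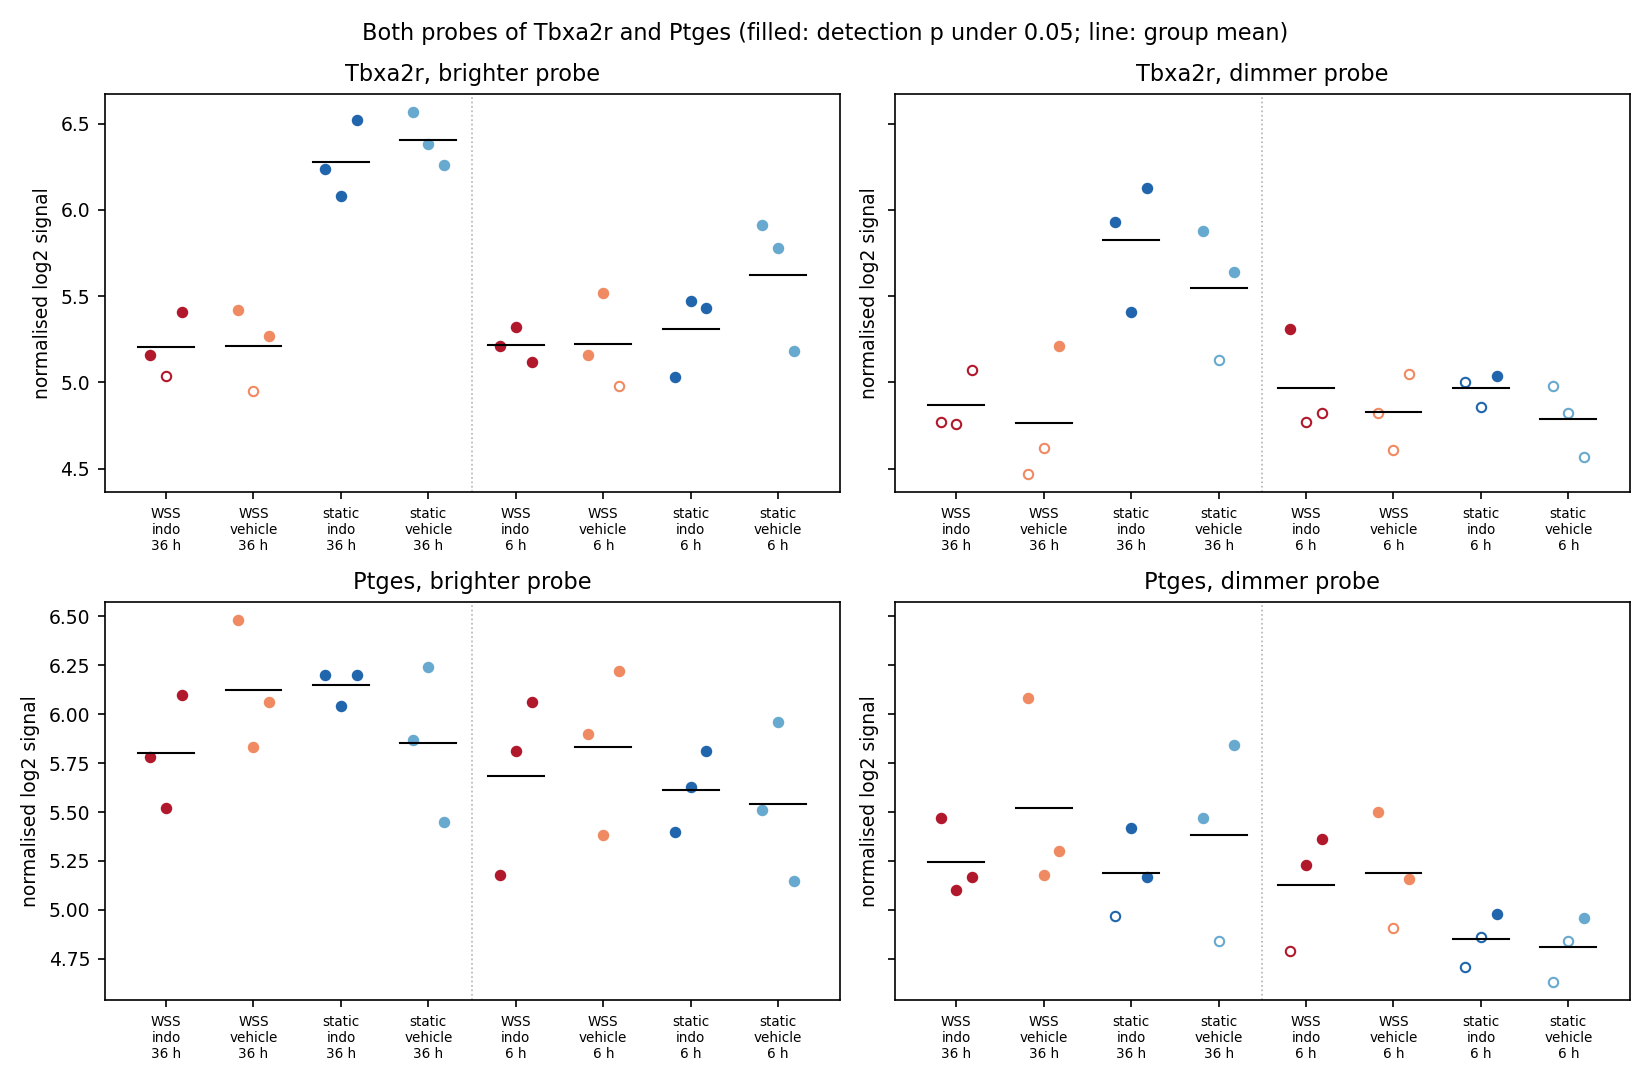
Normalised log2 signal (vertical axis) of both detected probes of Tbxa2r (top) and of Ptges (bottom) in each array, by group, with the group mean as a line, filled points where detection p was under 0.05. The brighter Tbxa2r probe is highest in static culture at 36 h. The dimmer Tbxa2r probe entered the fit only through static indomethacin culture at 36 h and supports nothing. Ptges passed the test in no comparison with either probe.

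At 36 h Tbxa2r was thus the 1 of 6 detected members that passed under WSS in vehicle, beside 9.38% of all genes (4.66% upward and 4.72% downward), and Tbxa2r and Ptgis were the 2 of 6 with indomethacin, beside 10.8% of all genes (5.05% upward and 5.78% downward). Arrays did not overlap for 2 of 6 members in vehicle (24% of all genes) and for 3 of 6 with indomethacin (27.9%). The median member difference was 0.01 in vehicle and -0.53 with indomethacin, beside 0.03 and 0.02 over all genes. Some marker levels also differed between WSS and static culture at 36 h. The summed mesenchymal level per array was 5029 to 7355 under WSS in vehicle, against 9778 to 9924 in static culture, and 5841 to 6859 under WSS with indomethacin, against 8250 to 10330 in static culture. Of 10 tested mesenchymal markers, 5 were lower under WSS in vehicle and 3 with indomethacin, and of 7 smooth muscle markers 1 was lower in each. Melanoblast markers went the other way, at 1569 to 2321 under WSS in vehicle, against 851 to 1167 in static culture, and at 1871 to 2041 under WSS with indomethacin, against 853 to 1113 in static culture, with 4 of 4 tested higher in both. Tyr and Mlana, which define pigment cells, were not detected. Endothelial markers summed to 1026 to 1234 under WSS with indomethacin, against 1508 to 1847 in static culture, and to 1014 to 1849 under WSS in vehicle, against 1386 to 2079 in static culture, with 1 of 10 lower in each. Neuron and neural crest markers summed to 6739 to 9338 under WSS in vehicle, against 3097 to 5734 in static culture, with 3 of 7 higher and 1 lower. The part of these markers in the Tbxa2r and Ptgis results was not tested.

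No detected member passed the test for indomethacin against vehicle. In static culture at 6 h, static culture at 36 h, WSS at 6 h, WSS at 36 h and the average of these 4, limma called 0 of 6 members, and 0, 6, 0, 1 and 0 of the 12226 genes (0%, 0.0491%, 0%, 0.00818% and 0%). Of the 6 genes in static culture at 36 h, 2 were higher and 4 lower (0.0164% and 0.0327%). At an unadjusted p under 0.05 the all-gene counts were 799, 689, 357, 698 and 858 (6.54%, 5.64%, 2.92%, 5.71% and 7.02%), and the only member among them was Hpgd under WSS at 36 h. Arrays with indomethacin and vehicle did not overlap for 0 of 6 members in each of the 4 pairs, beside 13.4%, 8.28%, 10.6% and 8.69% of all genes. Averaged over flow and time, the indomethacin difference was -0.03 for Ptges (95% confidence interval -0.29 to 0.24), -0.02 for Ptges2 (-0.22 to 0.18), 0.06 for Ptges3 (-0.07 to 0.19), -0.07 for Ptgis (-0.22 to 0.08), -0.23 for Hpgd (-0.5 to 0.04) and -0.11 for Tbxa2r (-0.31 to 0.08). The lowest adjusted p over these comparisons was 0.78. These intervals bound the averaged effect for the 6 genes and do not show that it was nil.
The widest indomethacin difference of a member in a single group pair was that of Hpgd under WSS at 36 h. Arrays read 5.32, 5.42 and 4.8 with indomethacin, against 6.02, 6.09 and 5.1 in vehicle, and overlapped (-0.55 ± 0.26 SE, adjusted p = 0.86). Ptgis in the same pair read 9.47, 10.02 and 10.03 with indomethacin, against 10.23, 9.9 and 10.28 in vehicle (-0.30 ± 0.14, adjusted p = 0.87). The flow by drug interaction passed for 0 members at either time and for 0 of all genes, where 487 genes at 6 h (3.98%) and 511 at 36 h (4.18%), and 0 members, had an unadjusted p under 0.05.

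**Figure D4:**
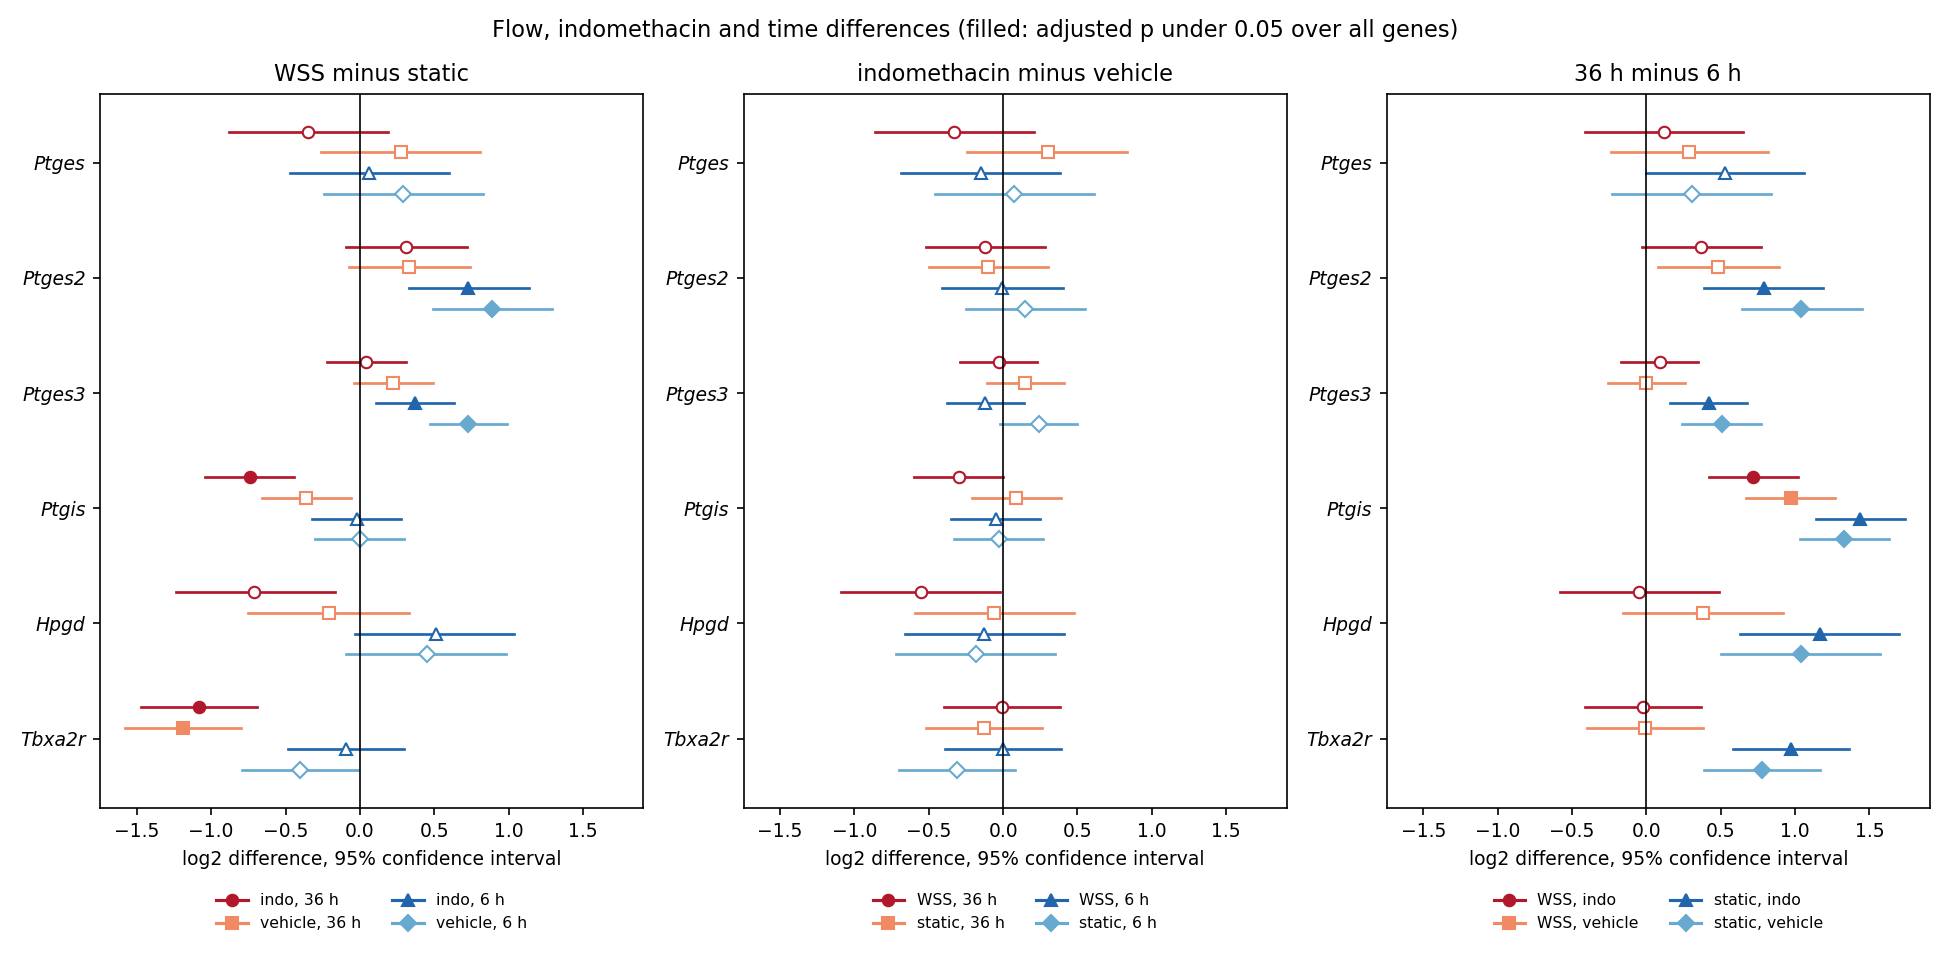
Log2 difference with its 95% confidence interval (horizontal axis) for the 6 detected members, in 4 comparisons each of WSS minus static, indomethacin minus vehicle and 36 h minus 6 h, filled where the adjusted p over all genes was under 0.05. No indomethacin point is filled, and every Ptgis time difference is filled, from 0.72 to 1.44.

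More members passed with time in static culture than with flow or drug, and the share of all genes that passed was larger there too. In static vehicle culture 5 of 6 detected members were higher at 36 h than at 6 h, beside 51% of all genes that passed, 26% upward and 25% downward. In static indomethacin culture the same 5 genes were higher (46.9% of all genes passed, 24.5% upward and 22.3% downward). Under WSS 1 of 6 was higher in vehicle (35.8%, 18% upward and 17.7% downward) and 1 of 6 with indomethacin (30.7%, 14.6% upward and 16.2% downward), in both cases Ptgis. Arrays at 36 h and 6 h did not overlap for 5 of 6 members in static vehicle culture (56.9% of all genes), 6 of 6 in static indomethacin culture (52.8%), 2 of 6 under WSS in vehicle (44.7%) and 1 of 6 under WSS with indomethacin (47.9%). Because the detection filter used the same arrays, these counts are given as a description.

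Ptgis was the member with the largest time differences. In static vehicle culture it read 10.62, 10.25 and 10.63 at 36 h, against 9.13, 9.21 and 9.15 at 6 h (1.33 ± 0.14 SE, 2.52-fold, adjusted p = 2.5e-07). In static indomethacin culture the difference was 1.44 ± 0.14 (2.72-fold, adjusted p = 1.3e-07). Under WSS it was 0.97 ± 0.14 in vehicle (1.96-fold, adjusted p = 3.3e-05) and 0.72 ± 0.14 with indomethacin (1.65-fold, adjusted p = 0.0007). No 36 h array overlapped a 6 h array in any of the 4. The time difference under WSS minus that in static culture was -0.36 ± 0.20 in vehicle (adjusted p = 0.26) and -0.72 ± 0.20 with indomethacin (adjusted p = 0.056), and neither passed.

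Hpgd and Tbxa2r rose with time in static culture. Hpgd read 5.85, 5.93 and 6.05 at 36 h in static vehicle culture, against 4.97, 5.38 and 4.36 at 6 h (1.04 ± 0.26 SE, adjusted p = 0.0021). With indomethacin, where no static 6 h array was detected, the difference was 1.17 ± 0.26 (95% confidence interval 0.63 to 1.7, adjusted p = 0.00093). Under WSS it was 0.38 in vehicle (adjusted p = 0.26) and -0.05 with indomethacin (adjusted p = 0.91). Tbxa2r in static culture rose by 0.78 ± 0.19 in vehicle (adjusted p = 0.0015) and by 0.97 ± 0.19 with indomethacin (adjusted p = 0.00027), with no overlap. Under WSS its differences were -0.01 with a 95% confidence interval of -0.4 to 0.38 in vehicle, and -0.02 (-0.41 to 0.37) with indomethacin.

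Ptges2 in static culture was higher at 36 h by 1.04 ± 0.19 SE in vehicle (2.06-fold, adjusted p = 0.00014) and by 0.79 ± 0.19 with indomethacin (adjusted p = 0.0022). Under WSS its difference of 0.48 ± 0.19 in vehicle did not pass (adjusted p = 0.056), with 36 h arrays all above 6 h arrays, and that with indomethacin was 0.37 (adjusted p = 0.16). Ptges3 was higher in static culture by 0.51 ± 0.13 in vehicle (adjusted p = 0.0021) and by 0.42 ± 0.13 with indomethacin (adjusted p = 0.0098), while under WSS it differed by 0.00 (-0.26 to 0.26) in vehicle and by 0.09 (-0.17 to 0.35) with indomethacin. The Ptges3 call with indomethacin was lost without static array 1 at either time (adjusted p up to 0.061).
Marker levels of other cells shifted over the same hours. The summed mesenchymal level was 9778 to 9924 at 36 h in static vehicle culture, against 4024 to 4420 at 6 h, with 9 of 10 markers higher, and it was 5029 to 7355 at 36 h under WSS in vehicle, against 3356 to 3658 at 6 h, with 4 of 10 higher. The summed erythroid level was 13961 to 51199 at 36 h in static vehicle culture, against 65560 to 120095 at 6 h, with 6 of 8 markers lower. Epithelial markers summed to 412 to 1123 at 36 h in static vehicle culture, against 2023 to 3228 at 6 h, with 5 of 6 lower, and 7 of 11 macrophage markers were higher, at 978 to 1426 at 36 h, against 519 to 692 at 6 h. Of 7 smooth muscle markers, 5 were higher with time in static vehicle culture and 2 under WSS in vehicle. Their part in the time results was not tested.

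The order of the 8 groups differed between members. Ptges2 was highest under WSS in vehicle at 36 h (8.12 ± 0.26) and lowest in static vehicle culture at 6 h (6.74 ± 0.30), and the only neighbours in that order without overlapping arrays were WSS indomethacin at 6 h (7.62 ± 0.16) and static indomethacin at 6 h (6.89 ± 0.29). Ptges3 likewise separated its 2 lowest groups, static indomethacin (10.06 ± 0.15) and static vehicle (9.82 ± 0.14) at 6 h, from the other 6. Ptgis broke between the 36 h groups and the 6 h groups, with 9.84 ± 0.32 in its lowest 36 h group, WSS with indomethacin, and 9.17 ± 0.01 in its highest 6 h group, WSS in vehicle. Tbxa2r separated static vehicle (6.4 ± 0.15) and static indomethacin (6.28 ± 0.22) at 36 h from the other 6 groups, whose means ran from 5.20 to 5.62. No neighbouring pair of groups was free of overlap for Ptges or Hpgd.
Across the 8 group means, and as a description only, Ptgis and Hpgd correlated at 0.87, Tbxa2r and Ptgis at 0.71, Tbxa2r and Ptges2 at 0.00, and Tbxa2r and Ptges3 at -0.12. Of all tested genes, the 3 whose group means followed each member most closely were Tuba1a (0.997), Slc66a1 (0.995) and Sh3bgrl3 (0.993) for Ptges2, Pop5 (0.989), Ap4s1 (0.987) and Lrrc57 (0.987) for Ptges3, and Gstm2 (0.996), Gm5836 (0.995) and Eif3h (0.995) for Ptgis. For Tbxa2r they were Abcg5 (0.979), Cox4i2 (0.977) and Rpl28 (0.976), for Hpgd Dmac2 (0.984), Kptn (0.983) and Samd1 (0.982), and for Ptges Lsm3 (0.967), Smarcd1 (0.959) and Irgm2 (0.959). With 8 points and 12226 genes, such values describe a shape and carry no test.

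A list of 23 other prostanoid genes, drawn up beside the members, held the remaining synthases, reductases, transporters and receptors. Of these, 20 had a probe and 12 were tested. Most receptors were among those not detected: Ptger2, Ptger4, Ptgdr, Ptgdr2, Ptgfr and Ptgir, together with the synthase Hpgds and the receptor regulator Ptgfrn. No probe was named for Ptgs1, Ptger1 or Akr1b3. Under WSS in vehicle 3 of 12 were higher and 0 lower at 6 h (15.1% and 14.3% of all genes), and 1 was higher and 1 lower at 36 h (4.66% and 4.72%). With indomethacin 2 were higher and 0 lower at 6 h (9.45% and 8.34%), and 1 was higher and 1 lower at 36 h (5.05% and 5.78%). Indomethacin itself moved 0 of 12 in all 5 comparisons.
Cbr3, a carbonyl reductase of the family whose member Cbr1 reduces prostaglandin E, was higher under WSS in all 4 flow comparisons, by 0.97 ± 0.22 SE at 6 h and 1.24 ± 0.22 at 36 h in vehicle (adjusted p = 0.0022 and 0.00099). With indomethacin the differences were 0.65 ± 0.22 at 6 h and 0.73 ± 0.22 at 36 h (adjusted p = 0.042 and 0.033), calls kept in 9 and 10 of 13 alternatives. In vehicle at 36 h its arrays ran from 8.48 to 9.54 under WSS, against 7.5 to 7.83 in static culture, without overlap.
Prxl2b, prostamide and prostaglandin F synthase, was higher under WSS at 6 h by 0.86 ± 0.16 SE in vehicle (adjusted p = 0.00039), with arrays of 7.51 to 7.78 under WSS, against 6.69 to 6.98 in static culture. At 36 h its arrays ran from 8 to 8.32 under WSS, against 7.99 to 8.34 in static culture. The flow effect at 36 h was lower than that at 6 h, by a tested difference of -0.91 ± 0.22 (adjusted p = 0.013), which was lost with median scaling and without normalisation (adjusted p up to 0.13).
Akr1b8, an aldo-keto reductase named after its values were seen, was the remaining gene higher under WSS in vehicle at 6 h (0.61 ± 0.20 SE, adjusted p = 0.023).
Tbxas1, which makes the thromboxane that Tbxa2r senses, was lower under WSS at 36 h with indomethacin (-0.84 ± 0.23 SE, adjusted p = 0.024), its arrays reading 4.58, 4.72 and 4.99 under WSS, against 5.2, 5.47 and 6.14 in static culture. That call was kept in 8 of 13 alternatives (adjusted p up to 0.2). In vehicle at 36 h the difference was -0.41 (adjusted p = 0.3). Ptgr1, a reductase that inactivates prostaglandins and leukotriene B, was called lower under WSS in vehicle at 36 h (-1.46 ± 0.45, adjusted p = 0.043). Its arrays read 4.45, 5.28 and 5.53 under WSS, against 5.59, 5.68 and 8.37 in static culture, and without the array at 8.37 the difference was -0.55 (adjusted p = 0.19).

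**Figure D5:**
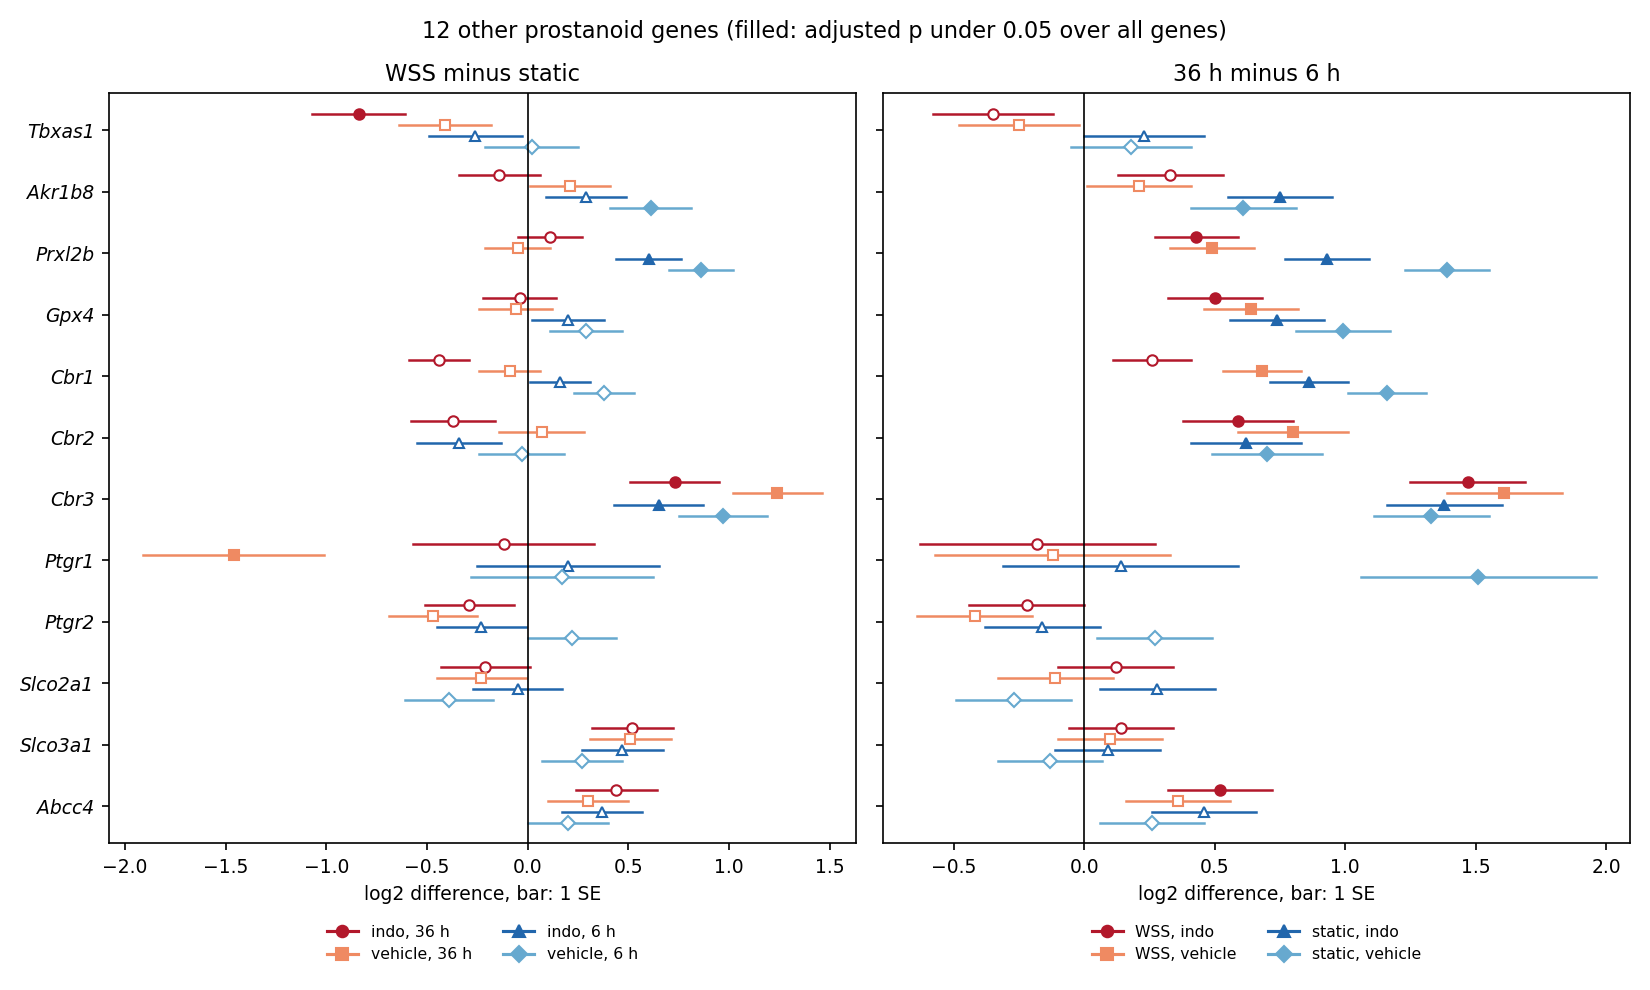
Log2 difference with a bar of 1 SE (horizontal axis) for the 12 tested genes of the other prostanoid list, in 4 comparisons each of WSS minus static and 36 h minus 6 h, filled where the adjusted p over all genes was under 0.05. Cbr3 is filled in all 8, and Prxl2b is filled under WSS at 6 h and in every time comparison.

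With time, 7 of these 12 were higher at 36 h in static vehicle culture (26% of all genes), 6 in static indomethacin culture (24.5%), and 5 under WSS in vehicle (18%) and with indomethacin (14.6%), with 0 lower in all 4 comparisons. The list holds Cbr2, which had all arrays detected only in 3 groups at 36 h. The static vehicle count includes Ptgr1 (1.51), whose 36 h arrays there read 5.59, 5.68 and 8.37. These counts are therefore a description. The list's median time difference in static vehicle culture was 0.66, beside 0.01 over all genes. Cbr3 was higher by 1.33 to 1.61 and Prxl2b by 0.43 to 1.39 over the 4 time comparisons. Cbr1 was higher by 1.16 ± 0.15 SE in static vehicle culture (adjusted p = 2.2e-06), by 0.86 in static indomethacin culture and by 0.68 under WSS in vehicle.

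Upstream of the cyclooxygenases, 13 of 24 phospholipases A2 and relatives were tested. Under WSS at 6 h 1 was higher and 1 lower in each drug state, and at 36 h 0 were higher and 1 lower in each. Over all genes 29.4% passed in vehicle and 17.8% with indomethacin at 6 h, and 9.38% and 10.8% at 36 h, and this list did not exceed these shares. Anxa1, annexin A1, known as a restraint on cytosolic phospholipase A2, was higher under WSS in vehicle at 6 h (1.08 ± 0.32 SE, adjusted p = 0.016), with arrays of 9.25 to 9.8 under WSS, against 8.38 to 8.46 in static culture. Mgll, monoacylglycerol lipase, which can feed arachidonic acid to cyclooxygenases, was lower in that comparison (-0.84 ± 0.30, adjusted p = 0.041), a call kept in 7 of 13 alternatives (as small as -0.25, adjusted p up to 0.3) and lost with the replicate block. Pla2g15, a lysosomal phospholipase A2, was lower under WSS at 36 h by -0.42 in vehicle (adjusted p = 0.022) and -0.54 with indomethacin (adjusted p = 0.0033). Both calls were lost with median scaling, without normalisation and with only the arrays compared, the vehicle difference being as small as -0.06 (adjusted p up to 0.76). Pla2g7, which inactivates platelet-activating factor, was higher under WSS at 6 h with indomethacin (1.17 ± 0.35, adjusted p = 0.024), where Pla2g12a, a secreted phospholipase A2 named after its values were seen, was lower (-0.51 ± 0.14, adjusted p = 0.014).
With time these genes gave 1 higher and 0 lower in static vehicle culture, 3 higher and 1 lower in static indomethacin culture, 1 higher and 0 lower under WSS in vehicle, and 1 higher and 1 lower under WSS with indomethacin, beside 51%, 46.9%, 35.8% and 30.7% of all genes that passed. Anxa1 was higher at 36 h in static vehicle culture (0.87, adjusted p = 0.03) and in static indomethacin culture (1.06, adjusted p = 0.011). Pla2g7 was higher in static indomethacin culture (1.14, adjusted p = 0.011). Mgll was higher under WSS in vehicle (1.26, adjusted p = 0.0028) and with indomethacin (1, adjusted p = 0.016). Pla2g3, a secreted phospholipase A2, had all arrays detected only in the 4 groups at 6 h, so its values are a description. Under WSS with indomethacin it read 4.93 to 5.18 at 36 h, against 5.43 to 5.95 at 6 h. The count of 1 lower under WSS with indomethacin is Pla2g3 and supports nothing.

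Of 14 genes of arachidonate supply and reacylation, 11 were tested. Under WSS in vehicle 1 was higher and 1 lower at each time, and with indomethacin 0 passed at 6 h and 1 was lower at 36 h, beside 29.4% and 9.38% of all genes in vehicle at 6 h and 36 h, and 17.8% and 10.8% with indomethacin. Lpcat1, a lysophosphatidylcholine acyltransferase, was higher (0.78 ± 0.26 SE, adjusted p = 0.028) and Fads1, a desaturase of arachidonic acid synthesis, was lower (-0.63 ± 0.16, adjusted p = 0.0067) in vehicle at 6 h. The Fads1 call was lost with median scaling and without normalisation (as small as -0.05, adjusted p up to 0.87). Mboat2, a lysophospholipid acyltransferase, was lower at 36 h in vehicle (-0.48, adjusted p = 0.022) and with indomethacin (-0.69, adjusted p = 0.0012), and Acsl6, an acyl-CoA synthetase, was higher at 36 h in vehicle (0.66, adjusted p = 0.032). The Mboat2 call in vehicle was lost with median scaling, without normalisation and with only the arrays compared (as small as -0.09, adjusted p up to 0.71).
Time counts for this list were 1 higher and 4 lower in static vehicle culture, 1 and 1 in static indomethacin culture, 2 and 5 under WSS in vehicle, and 1 and 3 under WSS with indomethacin, beside 51%, 46.9%, 35.8% and 30.7% of all genes that passed. Lpcat3, which places arachidonate into phospholipids, was higher in all 4 time comparisons, by 0.48 to 0.73. Lpcat2 had all arrays detected only in the 4 groups at 6 h, so its values are a description. In static vehicle culture it read 4.77 to 5.65 at 36 h, against 5.52 to 6.17 at 6 h. Under WSS in vehicle it read 4.87 to 5.21 at 36 h, against 5.62 to 6.32 at 6 h. Under WSS with indomethacin it read 4.83 to 4.95 at 36 h, against 5.71 to 5.96 at 6 h. The time counts of this list include Lpcat2 and are a description too. Among genes named after their values were seen, Acsl5, an acyl-CoA synthetase, was lower in all 4 time comparisons, by -0.3 to -0.52, and Mboat2 was lower under WSS in vehicle (-0.45) and with indomethacin (-0.51). Lpcat1 was lower with time under WSS in vehicle (-0.84, adjusted p = 0.015), and Fads1 was lower in static vehicle culture (-0.59, adjusted p = 0.0053), a call kept in 10 of 13 alternatives.

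The lipoxygenase branch, which competes for the same arachidonic acid, had 7 of 16 genes tested. Under WSS in vehicle 1 was higher and 0 lower at each time, and with indomethacin 0 passed at 6 h, while 2 were higher and 1 lower at 36 h. The shares of all genes were 29.4% and 9.38% in vehicle at 6 h and 36 h, and 17.8% and 10.8% with indomethacin. Alox5, the leukotriene-forming 5-lipoxygenase, was detected on 6 of 24 arrays, the 6 WSS arrays at 36 h, and entered the fit only through them. Its values are therefore a description: 5.18 to 5.79 under WSS in vehicle at 36 h, against 4.59 to 5.03 in static culture, and 5.25 to 5.65 under WSS with indomethacin, against 4.65 to 4.91 in static culture. Its partner Alox5ap was higher under WSS at 6 h in vehicle (0.82, adjusted p = 0.046), a call kept in 9 of 13 alternatives and in 11 of 24 fits without 1 array (adjusted p up to 0.21). At 36 h with indomethacin Ltb4r1, a leukotriene B receptor, was higher (0.72, adjusted p = 0.04), a call kept in 9 of 13 alternatives. Ephx2, soluble epoxide hydrolase, was detected on 6 of 24 arrays and entered the fit only through static vehicle culture at 36 h. It read 4.76 to 4.95 under WSS with indomethacin at 36 h, against 5.08 to 5.89 in static culture, and 4.72 to 5.02 under WSS in vehicle, against 5.25 to 6.06 in static culture. The counts for this list include Alox5 and Ephx2 and support nothing.
Time counts were 2 higher and 0 lower in static vehicle culture, 1 and 0 in static indomethacin culture, 2 and 1 under WSS in vehicle and 2 and 0 under WSS with indomethacin, beside 51%, 46.9%, 35.8% and 30.7% of all genes that passed. In static vehicle culture Alox5ap was higher at 36 h (1.03, adjusted p = 0.008). Ephx2 read 5.25 to 6.06 at 36 h in static vehicle culture, against 4.48 to 5.12 at 6 h, and 5.08 to 5.89 at 36 h in static indomethacin culture, against 4.52 to 4.56 at 6 h. Under WSS in vehicle Mgst3, a microsomal glutathione transferase, was higher (0.77, adjusted p = 0.033) and Alox12, the 12-lipoxygenase, was lower (-0.82, adjusted p = 0.032). Alox5 read 5.18 to 5.79 at 36 h under WSS in vehicle, against 4.58 to 4.82 at 6 h.
Macrophage markers, which include cells known to use this branch, were at summed levels of 1217 to 1998 under WSS in vehicle at 36 h, against 978 to 1426 in static culture, with 0 of 11 passing. In the comparisons in which Alox5ap was called, 3 of 11 were higher under WSS in vehicle at 6 h and 7 of 11 were higher at 36 h in static vehicle culture. Of 8 mast cell markers 2 were tested, Kit, which is also in the melanoblast list, and Gata2, which is also in the blood stem and progenitor list. Both were higher under WSS at 36 h in each drug state, at 379 to 518 under WSS in vehicle, against 255 to 281 in static culture. Cpa3, Mcpt4, Tpsb2, Cma1, Ms4a2 and Fcer1a were not detected. The part of both lists in the lipoxygenase results was not tested. Indomethacin moved 0 genes of these last 3 lists in any of its 5 comparisons.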

How the data were processed

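Per the labels' protocols, RNA was lysed on the slide, purified with RNeasy columns, amplified to biotinylated cRNA with the Ambion MessageAmp kit and hybridised to Illumina bead arrays. The deposited table gives, per the file headers, a non-normalised signal intensity and a detection p-value for each of 45281 probes on 24 arrays. The authors' deposited processed values have column medians of 11.6 to 11.7 and an unknown background step. They served as an alternative after being raised to a floor of 16 and put on a log2 scale. Of these values, 54.3% lay below that floor. Probes were named from the platform annotation (35784 with 1 symbol, 0 with several, 9497 without), and 937 symbols were updated through RefSeq.

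Intensities were background-corrected, quantile-normalised and put on a log2 scale with limma neqc (limma 3.58.1, R 4.3.3; offset 16). Probes entered the fit where at least 1 group had detection p under 0.05 on its 3 arrays, and the brightest kept probe stood for a gene. A linear model with 8 group means was fitted to 12226 genes, 17 two-sided comparisons were drawn from it with empirical Bayes moderation, and p-values were adjusted by Benjamini-Hochberg over all genes, with 0.05 as threshold. In data simulated for WSS against static culture in vehicle at 6 h, over 12226 genes, 65, 72 and 63 genes were changed by 0.5, 1 and 2 on the log2 scale. The fit recovered 15.4%, 91.7% and 100% of them. In the real comparison 29.4% of all genes passed, a far larger share than was changed here. The Benjamini-Hochberg cut-off depends on that share, so these rates do not carry over to it. Group sizes of 3 limit the precision, and an exact permutation test of 3 against 3 cannot go below p = 0.1. The members, the gene lists and the marker lists were chosen with earlier results of these data known. In the other lists, the rule named up to 4 genes past the threshold with the largest differences in each list and kind of comparison. Alternatives covered background correction, normalisation, the detection filter, the probe rule, array weights, the replicate number as a block and leaving out each array.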

Additional observations from a re-analysis of the deposited data

Results flagged for a closer look

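In a pair of the genes named, the test of whether the effect of WSS against static culture differed between 36 h and 6 h passed. For Tbxa2r with indomethacin it was -1.08 at 36 h and -0.09 at 6 h, a difference of -0.98 on the log2 scale (limma, adjusted p = 0.047). That call was kept in 5 of 13 alternatives and 7 of 24 fits without 1 array, and was lost with the replicate block (adjusted p = 0.053). For Prxl2b in vehicle it was -0.05 at 36 h and 0.86 at 6 h, a difference of -0.91 (adjusted p = 0.013). That call was kept in 11 of 13 alternatives and lost with median scaling and without normalisation (adjusted p up to 0.13). Groups of 3 arrays are too small for a test of single outlying samples, and each array was only left out in turn.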

How the results depend on the processing

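In vehicle at 6 h, the calls of Ptges2 and Ptges3 under WSS were kept in 13 of 13 alternatives and in 24 of 24 fits without 1 array, as was the Ptgis call under WSS at 36 h with indomethacin. The Tbxa2r calls at 36 h were kept in 12 of 13 and 24 of 24. The Tbxa2r flow by time call with indomethacin was kept in 5 of 13, and lost without background correction, with either median scaling, with the authors' processed values, without normalisation, with no filter, with trended moderation and with the replicate block. Ptgis under WSS with indomethacin at 6 h was 0.42 without normalisation, against -0.02. Median scaling over all probes put the median flow difference of all genes at 0.24 in vehicle at 6 h, against 0.01 with quantile normalisation. It put 82.3% of calls in that comparison higher under WSS, against 51.2%. In vehicle at 36 h it put 87.1% of calls higher, against 49.7%. Median scaling over detected probes, chosen after seeing the data, gave 41.1% and 36.4%.

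Counts of genes under WSS were 2066 with median scaling and 123 with only the arrays compared in vehicle at 36 h (1147 as reported), 4575 with median scaling and 4881 with array weights with indomethacin at 6 h (2175), and 710 with only the arrays compared with indomethacin at 36 h (1325). For indomethacin the counts were 95 with array weights in static culture at 6 h (0), and in static culture at 36 h (6) 3 at detection p under 0.01 and 0 without background correction, with an offset of 50, with either median scaling, with only the arrays compared and with trended robust moderation. Under WSS at 6 h (0) they were 2 with the authors' processed values and 2 with array weights. Under WSS at 36 h (1) they were 3 with median scaling, 3 with the authors' processed values, 2 with the offset of 50, and 0 without background correction, with only the arrays compared and with array weights. The average (0) gave 4 with the authors' processed values. Flow by drug gave 1 at 6 h with array weights and 3 at 36 h with the authors' processed values. Flow by time gave 680 with median scaling and 948 with only the arrays compared in vehicle (1437), and 1092 with array weights with indomethacin (356).

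Counts of members were 2 with median scaling under WSS in vehicle at 36 h (1), 1 with no filter and 1 with the replicate block under WSS with indomethacin at 6 h (2), and 2 without background correction, with the offset of 50 and with median scaling over detected probes for time under WSS in vehicle (1). Flow by time in vehicle (0) gave 1 without background correction, with the offset of 50, with the mean of all detected probes and with trended moderation, and 2 with array weights. With indomethacin (1) it gave 2 with the offset of 50, at detection p under 0.01, with the mean of probes and with only the arrays compared, 3 with array weights, and 0 with the authors' processed values, no filter and median scaling over detected probes.

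Leaving out 1 array gave 634 to 1264 genes under WSS in vehicle at 36 h, 1178 to 2253 with indomethacin at 6 h and 753 to 1401 at 36 h. It gave 0 to 24 for indomethacin in static culture at 36 h, 0 to 2 under WSS at 6 h, 0 to 9 under WSS at 36 h and 0 to 2 averaged. Flow by drug gave 0 to 1 at 6 h and 0 to 3 at 36 h, and flow by time 836 to 1524 in vehicle and 116 to 434 with indomethacin. Members ranged from 1 to 2 under WSS in vehicle at 36 h, 0 to 2 with indomethacin at 6 h, 1 to 2 for time under WSS in each drug state, 0 to 1 for flow by time in vehicle and 0 to 2 with indomethacin. The causes were not tested.

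Whether replicate numbers pair the samples was described and not tested. Same-numbered arrays of different groups deviated together with a median correlation of 0.04 (-0.23 to 0.36, 84 pairs). For arrays of different numbers the median was -0.02 (-0.41 to 0.38, 168 pairs). Of 24 arrays, 13 correlated best with their own number. With the number as a block, Hpgd passed under WSS at 36 h with indomethacin (adjusted p = 0.037). Signal near background limits what can be said of Hpgd, of Tbxa2r under WSS, of Tbxas1 under WSS with indomethacin and of the 4 undetected genes.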
